A study of Saccharomyces cerevisiae with 18 samples.

Results

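The 3 RNA-seq libraries of a budding yeast strain heterozygous for GIP4 (YAL031C) were compared with the 9 libraries of the other 3 heterozygous replacement strains of the series, those of SEO1 (YAL067C), FUN26 (YAL022C) and FUN14 (YAL008W). The libraries were chosen by strain name alone, so 12 of the 18 libraries entered the comparison, and the 6 wild-type libraries are given for context. The study concerned gene position. Each strain is a heterozygous diploid in which 1 copy of the named chromosome I gene was replaced. All 18 labels give BY4741, a haploid laboratory strain, as the background, while the deposited wild-type columns carry the name of the diploid BY4743. All groups grew at 30 °C in YPD (rich glucose medium) through log phase between optical densities of 0.2 and 1.0 and without G418, and the RNA was poly-A selected. Neither the source of the replicates (separate cultures or 1 culture) nor any batch is stated, so p-values here measure the spread between libraries, which may be technical. Each strain is a single construct, and a feature of the strain that is unrelated to the replaced gene cannot be told apart from the replacement.

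Gip4 is a cytoplasmic protein that binds Glc7, the catalytic subunit of type 1 protein phosphatase. Glc7 has no fixed target of its own: partner proteins direct it to glycogen metabolism, glucose repression, mitosis, the bud neck and other tasks, and excess Gip4 is known to draw Glc7 out of the nucleus. Among the other partners, Gip2 and Gac1 act in glycogen metabolism, Reg1 in glucose repression, Sds22 and Ypi1 in the nucleus, and Glc8 activates the phosphatase.

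Values are estimated counts over the last 200 bases of each ORF, which the authors deposited, given here as CPM, counts per 1e6 of the scaled library size. Values stop at about the length of the counted window, so a value may count distinct read positions rather than reads, and the counting interval given for GIP4 then covers positions. Total counts were shallow, from 66145 to 126675.5 in the GIP4 heterozygote and from 52293.5 to 132618 in the other strains, and 2659 of 6606 ORFs had enough counts to be tested. Mating genes checked the diploid label. The 6 a-specific genes summed to between 48.9 and 94.6 CPM in the GIP4 libraries, to between 14.5 and 159 in the other strains and to between 873 and 1493 in wild-type. The 11 haploid-specific genes summed to between 31.5 and 114 CPM in the GIP4 libraries, to between 95.5 and 239 in the other strains and to between 1011 and 1498 in wild-type. The 4 alpha-specific genes summed to between 42.2 and 94.6, to between 0 and 108 and to between 30.5 and 168 CPM in the same order. Of these genes MFA1, STE3, GPA1, STE5, FUS1, HO and AXL1 had 0 counts over the 3 GIP4 libraries. The rest had few, with 16 for MF(ALPHA)2, 10 for STE6, 8 for STE4, 6 for FUS3 and 4 for STE2 among the highest. The heterozygotes thus matched one another, and the wild-type libraries held the a-specific and haploid-specific transcripts that a/alpha diploids lack, so wild-type enters no test here.

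Libraries of the same strain differed along the first axis, most of all in SEO1. On the first principal axis of log2 CPM, which held 48.3% of the variance over the 12 libraries, the GIP4 libraries scored 34.8, 26.9 and 5.59. The SEO1 libraries scored 26.9, −25.2 and −18.6, the FUN26 libraries 12.5, 8.0 and −12.3, and the FUN14 libraries −12.1, −26.5 and −19.9. SEO1 replicate 1 thus lay among the GIP4 libraries and far from the other 2 of its own strain. The main counts and calls are given below with it and, where it changes them, without it. Strain accounted for 52.4% of the variance of the scores. The wild-type libraries, placed on the same axis afterwards, spread from −29.0 to 26.3, nearly as widely as all the heterozygotes together.

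**Figure D1:**
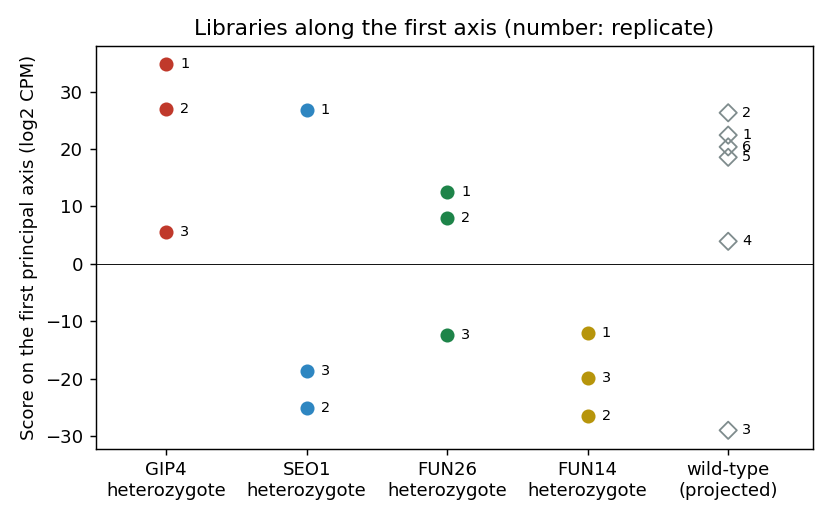
Score of each library on the first principal axis of log2 CPM (vertical) by group (horizontal), with the replicate number beside each point; open diamonds are wild-type libraries projected afterwards. The 3 GIP4 libraries sit between 5.59 and 34.8, SEO1 replicate 1 sits among them at 26.9, and the wild-type libraries cover the range from −29.0 to 26.3.

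GIP4 itself was lower in its own strain. The GIP4 libraries held 2, 1 and 0 counts, which is 16.3, 10.6 and 0 CPM, or 8.95 ± 8.27 (SD, n = 3). The 9 other libraries held between 2 and 8 counts, with a lowest value of 32.6, a median of 43.4 and a highest value of 77.0 CPM, or 49.2 ± 15.9 (SD, n = 9). No GIP4 library reached the lowest of the others, and wild-type stood at 52.6 ± 21.3 CPM (SD, n = 5 after 2 near-identical libraries were averaged). The gene did not pass the filter on low counts. In edgeR's fit without the filter it was lower by −1.99 ± 0.61 on the log2 scale (SE), with an unadjusted quasi-likelihood p of 0.00346 and a Benjamini-Hochberg adjusted p of 0.125 over 6332 ORFs. An exact two-sided permutation test of log2 CPM gave p = 0.00455, the smallest that 220 splits allow. Pooled over libraries, the GIP4 level of the other strains was 4.55 times that of the GIP4 strain (95% interval 1.45 to 22.95, for counting error), an interval that holds a ratio of 2. In R64, the reference assembly, GIP4 lies on chrI:84749-87031.

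**Figure D2:**
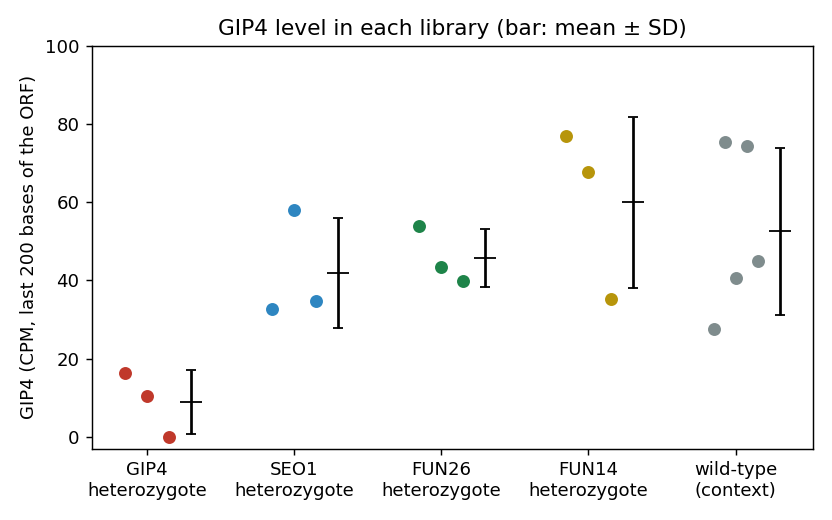
GIP4 level in CPM (vertical) in each library by group (horizontal); points are libraries and the bar beside them is the mean ± SD. The 3 GIP4 libraries lie between 0 and 16.3 CPM and the 9 libraries of the other strains between 32.6 and 77.0 CPM.

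The other replaced genes did not set the GIP4 strain apart. FUN26, a vacuolar nucleoside transporter, stood at 209 ± 89.4 CPM in the GIP4 libraries (n = 3) and at 213 ± 99.2 in the 9 others. FUN14, a mitochondrial membrane protein, stood at 241 ± 25.2 and 229 ± 67.1 CPM. For each gene the 9 others include the strain in which that gene was itself replaced. By strain FUN26 stood at 124 ± 58.9 CPM in its own heterozygote, 282 ± 120 in SEO1 and 233 ± 42.0 in FUN14. FUN14 stood at 149 ± 25.9 CPM in its own heterozygote, 290 ± 38.7 in SEO1 and 248 ± 9.31 in FUN26. SEO1, a putative permease, had 0 counts in all 12 libraries, so its replacement could not be checked from these values.

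Across the transcriptome, no ORF passed the threshold of 0.05 between the GIP4 heterozygote and the mean of the other 3 strains (0 of 2659, or 0%, edgeR's quasi-likelihood test with Benjamini-Hochberg adjustment). DESeq2 called 4. With the replicate number as a block in the fit, edgeR called 172 of 2659, 162 higher and 10 lower. At an unadjusted p under 0.05 edgeR without the block had 544 ORFs. Of these, 390 were higher in the GIP4 strain (14.7% of those tested) and 154 lower (5.79%). The median log2 fold change over all tested ORFs was −0.01, and 1304 of them were positive. The 3 GIP4 libraries lay all above the 9 others for 36 ORFs (1.35%) and all below them for 42 (1.58%). Of the 12 libraries left out one at a time, SEO1 replicate 1 alone changed this count: without it, edgeR called 543 of 2859 ORFs, 488 higher (17.1%) and 55 lower (1.92%), while leaving out any other library left 0. Without it the ORFs that did not overlap numbered 105 above and 61 below.

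Set against each strain in turn, the same GIP4 libraries gave different counts. Against the FUN14 heterozygote 53 ORFs passed (1.99%), 46 higher (1.73%) and 7 lower (0.263%), with a median absolute log2 fold change of 0.51 over all tested ORFs. Against the SEO1 heterozygote and against the FUN26 heterozygote edgeR called 0 (0% each), with 254 and 122 ORFs at an unadjusted p under 0.05, and DESeq2 also called 0 in both. The SEO1 count became 465 without SEO1 replicate 1. Whether these 3 comparisons differ from one another was not tested, and all share the GIP4 libraries. The 53 calls against FUN14 moved with single libraries. They became 2 without GIP4 replicate 1, 1 without GIP4 replicate 2 and 198 without GIP4 replicate 3, and 1 without any of the 3 FUN14 libraries. Libraries outside the pair, which enter the same estimate of spread, moved it as well: the count was 450, 140 and 129 without SEO1 replicates 1, 2 and 3, and 1 without FUN26 replicate 1 or 2. With the replicate block the count against FUN14 was 315.

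The genes described next are the 12 higher and 12 lower ORFs with the smallest p among those whose GIP4 libraries did not overlap the 9 others, so their separation is the way they were chosen and no finding. With all 12 libraries none passed the threshold in the comparison with all 3 strains. Their edgeR quasi-likelihood p-values with Benjamini-Hochberg adjustment ran from 0.0669 to 0.137 in the higher group and from 0.137 to 0.165 in the lower group. The log2 fold changes ran from 1.00 to 2.30 and from −2.13 to −0.84, and each is given with its SE. Without SEO1 replicate 1, all 12 higher genes passed, at adjusted p from 1.33e-05 (CUE5) to 0.000599 (TEC1) by the same test. Of the 12 lower genes 11 passed, from 0.00242 (ENP2) to 0.0398 (YKL145W-A), with SRP72 the exception. In that setting 17.1% of all tested ORFs were called higher and 1.92% lower. The genes were chosen by smallest p in these same libraries, so these counts add no support.

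Of the lists that IGD1, HXK1 and GPD1 belong to, 2 of 12 tested glycogen and trehalose genes, 1 of 4 glucose-repressed genes and 1 of 22 genes of glycolysis and fermentation lay above all 9 others, beside 1.35% of all ORFs. These lists are named because they hold genes picked for lying above, so each count is at least 1 by that choice and adds no support. IGD1, an inhibitor of the glycogen debranching enzyme, had the smallest p. It stood at 946, 844 and 709.6 CPM in the GIP4 libraries and ranged from 58.7 to 683 in the others, with a median of 299. The nearest were FUN26 replicate 1 at 683 and SEO1 replicate 1 at 631, while the FUN14 libraries had 116, 122 and 58.7. Its log2 fold change was 1.58 ± 0.27 (SE, edgeR's quasi-likelihood test, Benjamini-Hochberg adjusted p = 0.0669). It passed under 10 of 26 alternative settings, as the only call in 6 of them: scale factors by relative log expression or upper quartile, no count filter, a minimum count of 20, a correction for the ceiling on counts, and the FUN26 strain left out. Wild-type overlapped the GIP4 libraries, at 75.4 to 869 CPM.

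HXK1, the hexokinase isoenzyme that glucose represses, stood at 962, 1055 and 978 CPM in the GIP4 libraries against a lowest value of 319, a median of 434 and a highest value of 764 in the 9 others. Its log2 fold change was 1.00 ± 0.21, but 0.55 with a correction for GC content. GPD1, glycerol-3-phosphate dehydrogenase, stood at 897, 886 and 915 CPM against 135 to 755, with a log2 fold change of 1.26 ± 0.29. The GIP4 values of GPD1 were close together, and the other strains spread over a wide range below them. Reads of HXK1 and YFR052C-A, and of GPD1 and YDL023C, cannot be told apart where the ORFs overlap, since use of strand is not stated.

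The remaining higher genes belong to varied processes. CCC1, which moves iron and manganese into the vacuole, stood at 245, 243 and 189 CPM against 28.9 to 141, and its log2 fold change was 1.66 ± 0.36. PNP1, purine nucleoside phosphorylase, stood at 285, 295 and 221 CPM against 14.5 to 174 (1.78 ± 0.41). For both genes the lowest values of the others came from SEO1 replicate 2 or a FUN14 library. TEC1, a transcription factor of filamentous growth, stood at 253, 179 and 158 CPM against 11.7 to 139 (1.94 ± 0.47). It passed the filter on low counts only with the help of the GIP4 libraries, where it was high. LOT6, a quinone reductase, had the largest log2 fold change of the 12, at 2.30 ± 0.57, from 326, 253 and 252 CPM against 0 to 216. For TEC1 and LOT6, FUN26 replicate 3 sat far below replicates 1 and 2 of its strain, so the comparison strains did not move as blocks. CUE5, a ubiquitin-binding protein (1.55 ± 0.34, overlapped by YOR041C), PLB1, a phospholipase B (1.43 ± 0.35), BRO1, an endosomal sorting factor (1.13 ± 0.29), ARC15, a subunit of the Arp2/3 actin complex (1.16 ± 0.31), and YGR018C, which overlaps YGR017W (1.30 ± 0.31, but 0.86 with the GC correction), completed the group.

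For 5 of the 12 higher genes the nearest of the 9 others was SEO1 replicate 1 and for 7 it was a FUN26 library. Wild-type libraries reached into the GIP4 range for 5 of the 12. Against the FUN14 heterozygote alone 11 of the 12 passed, where 1.73% of all tested ORFs were called higher, and against the SEO1 or FUN26 heterozygote 0 did. The 12 were picked for being higher than FUN14 as well, so this count adds no support.

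**Figure D3:**
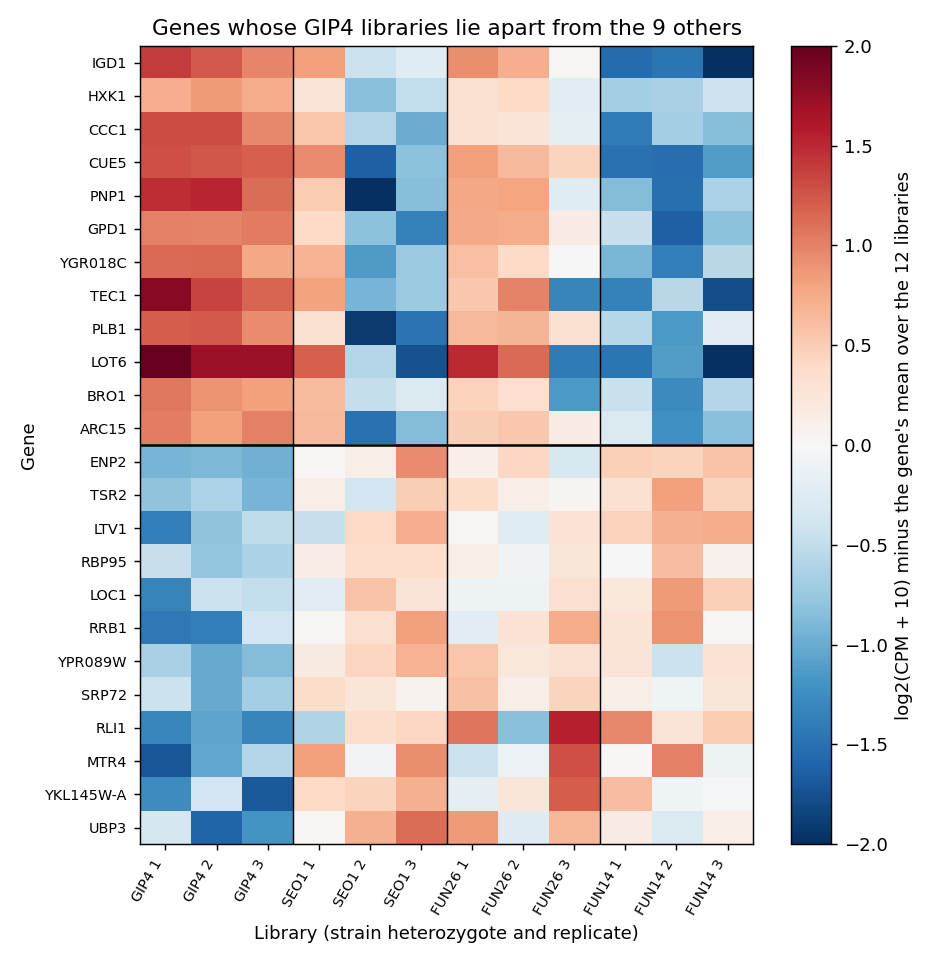
Level of the 12 higher (above the line) and 12 lower genes (below it) in each of the 12 libraries (columns), as log2(CPM + 10) minus the mean of the gene over the 12 libraries; colours stop at 2 in either direction. GIP4 columns are red above and blue below because the genes were chosen that way; SEO1 replicate 1 and FUN26 replicates 1 and 2 take intermediate colours for most higher genes, and the FUN14 columns the opposite ones.

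Of the lower genes, 6 are described together for their known roles in ribosome assembly, a grouping made after their values were seen. ENP2 alone of them is on the ribosome biogenesis list, of whose 46 tested members 1 lay below all 9 others, beside 1.58% of all ORFs. ENP2, a nucleolar protein of the small subunit precursor, stood at 114, 116 and 110.4 CPM in the GIP4 libraries against a lowest value of 179, a median of 304 and a highest value of 445 in the 9 others. Its log2 fold change was −1.35 ± 0.31 (edgeR's quasi-likelihood test, Benjamini-Hochberg adjusted p = 0.137), and the GIP4 values varied little. TSR2, which acts in 20S pre-rRNA processing, stood at 139, 158 and 126 CPM against 189 to 447 (−1.10 ± 0.29). LTV1, an assembly and export factor of the small subunit, stood at 81.5, 127 and 158 CPM against 163 to 387 (−1.27 ± 0.34). The gap for LTV1 was narrow: GIP4 replicate 3 at 158 and SEO1 replicate 1 at 163 nearly met.

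RRB1, a chaperone of ribosomal protein L3, stood at 40.8, 42.2 and 94.6 CPM against 108 to 244 (−1.57 ± 0.43). LOC1, of large subunit assembly and mRNA localisation, stood at 171, 327 and 315 CPM against 381 to 812 (−1.01 ± 0.27). RBP95, a factor of large subunit precursors, stood at 302, 243 and 268 CPM against 399 to 650 (−0.84 ± 0.22, but −0.56 with the GC correction). In LOC1 and in RRB1, 1 GIP4 library stood apart from the other 2 by more than the gap between the groups. TSR2 overlaps YLR434C, so their reads cannot be told apart.

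The other lower genes were SRP72 of the signal recognition particle (−0.98 ± 0.31), the ribosome recycling factor RLI1 (−2.13 ± 0.68), the RNA helicase MTR4 of nuclear RNA decay (−1.82 ± 0.59), the deubiquitinating enzyme UBP3 (−1.45 ± 0.49), YPR089W (−1.25 ± 0.39) and YKL145W-A (−1.59 ± 0.52), which overlaps the proteasome gene RPT1. RLI1 rested on few reads, with 16.3, 21.1 and 15.8 CPM in the GIP4 libraries against 26.0 to 179. So did MTR4, with 16.3, 31.65 and 47.3 against 53.9 to 199, and YKL145W-A, with 24.5, 52.8 and 15.8 against 62.9 to 179. UBP3, with 65.2, 21.1 and 31.5 against 67.7 to 195, and YPR089W, with 57.1, 42.2 and 47.3 against 67.7 to 160, were low as well. For RLI1, MTR4, YKL145W-A, UBP3, YPR089W and also RRB1, no GIP4 library reached the level that the filter on low counts asks for. They passed it only through the other strains, where they were higher, so their p-values carry that choice. Wild-type libraries reached into the GIP4 range for 10 of the 12 lower genes. Against FUN14 alone 4 of the 12 passed, namely ENP2, TSR2, LTV1 and LOC1, where 0.263% of all tested ORFs were called lower. These 12 were likewise picked for being lower than FUN14, so this count adds no support.

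The PAC core, GATGAG or its complement CTCATC, is a promoter element known from ribosome biogenesis genes, and it is shown here because 6 of the lower genes act in ribosome assembly. It occurred within the 300 bases before the start codon in 6 of the 11 lower genes with an R64 promoter (54.5%) and in 1 of the 12 higher genes, IGD1 (8.3%). It also occurred in 1148 of all 6007 promoters (19.1%), and in 20.4% of those of tested ORFs, from which the genes were drawn. The sets of 6 are not the same: TSR2 had no match, and MTR4, not described with the assembly genes, had a match. The windows below are R64 RefSeq sequence found by gene name, written in the direction of the gene, with the motif in capitals.
LTV1, chrXI:176658-176687, plus strand: aaaattttaagcGATGAGcatcgcctgaat
RBP95, chrIII:143532-143561, plus strand: ggaacgaaaagaGATGAGctaaattcaaat
LOC1, chrVI:148979-149008, plus strand: tgaagtaacggcGATGAGgtgaagtttttt
RRB1, chrXIII:534784-534813, minus strand: actgaatttagcGATGAGatgatcatttct
MTR4, chrX:342371-342400, plus strand: tcactttcttgcGATGAGatgcacatagta
ENP2, chrVII:781676-781705, plus strand: agctcatctcatCTCATCggctgtaatcag
The motif shown began 111, 90, 119, 103, 139 and 79 bases before the start codon in this order, and in LTV1, LOC1, RRB1 and MTR4 the letters before GATGAG ended in GC. Farther matches lay 231 bases before the start codon in LOC1, 281 in RRB1 and 251 in ENP2, so positions over the window were less uniform than those shown. In ENP2 CTCATC also recurs in overlapping copies, 2 further ones beginning 89 and 84 bases before the start codon. A match of letters is not a bound site.

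The stress response element, CCCCT or AGGGG, is bound by Msn2 and Msn4 in stress. It occurred in 5 of the 12 higher genes (41.7%), in 3 of the 11 lower genes (27.3%), in 1334 of 6007 promoters (22.2%) and in 24.8% of those of tested ORFs. IGD1 holds it at 264 and 238 bases before its start codon and CCC1 at 270 bases.
IGD1, chrVI:183109-183137, minus strand: ccagtgataaatCCCCTgtttcctttcgt
IGD1, chrVI:183083-183111, minus strand: cgttaacatctcCCCCTgatctgggggat
CCC1, chrXII:576543-576571, plus strand: attggctcggtaCCCCTttcgtgacccgc
The binding core of the amino acid regulator Gcn4, TGACTC or GAGTCA, occurred in 0 of the 12 higher and 1 of the 11 lower genes, against 7.8% of all promoters and 8.1% of those of tested ORFs. The sets are small and were picked by their values, so these shares are descriptions. The 3 words can overlap one another by at most 3 letters, as CTCATC does with TGACTC.

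Glc7 and its partners, the proteins closest to Gip4, were mostly too low to test: 9 of 24 listed genes passed the filter. Of these, 4 were positive and the median log2 fold change was −0.04, beside −0.01 over all tested ORFs. GLC7 itself stood at 155, 116 and 47.3 CPM in the GIP4 libraries and at 113 to 244 in the others, a log2 fold change of −0.43 with an unadjusted edgeR p of 0.25. With all 12 libraries none of the 9 passed after adjustment, and 2, both higher, had an unadjusted p under 0.05, where 14.7% of all tested ORFs did so in that direction.

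GIP2, a putative Glc7 subunit of glycogen metabolism, was 1 of these. It stood at 228, 137 and 126 CPM in the GIP4 libraries against 32.6, 0 and 13.9 in the SEO1 libraries, 189, 78.1 and 79.7 in the FUN26 libraries and 19.2, 27.1 and 23.5 in the FUN14 libraries. FUN26 replicate 1 lay inside the GIP4 range, and every other library lay below it. The log2 fold change was 2.18 ± 0.46 (edgeR's quasi-likelihood test, Benjamini-Hochberg adjusted p = 0.137). GIP2 passed against FUN14 alone, where it was higher by 2.79 on the log2 scale (edgeR, Benjamini-Hochberg adjusted p = 0.0485). It had passed the filter on low counts only with the help of the GIP4 libraries, where it was high, so its p-values carry that choice. GLC8, the activator, stood at 489, 348 and 347 CPM against 162 to 378 (0.72 ± 0.26, adjusted p = 0.174 by the same test), with FUN26 replicate 1 again the highest of the others. Without SEO1 replicate 1, GIP2 (2.45, adjusted p = 0.000616) and GLC8 (0.75, adjusted p = 0.0469) passed by the same test, 2 of 11 tested genes of this list beside 17.1% of all ORFs called higher, and the list median was −0.12. These calls add no support, since that library was singled out for lying near the GIP4 libraries. SDS22 (0.31), SHP1 (0.15), PTI1 (−0.04), GIP3 (−0.35), SLA1 (−0.41) and YPI1 (−0.76) had log2 fold changes on both sides of 0. Among those under the filter, GAC1 stood at 67.2 ± 16.0 and 64.9 ± 38.9 CPM, and REG1 at 39.3 ± 23.1 and 63.7 ± 27.4 CPM, in the GIP4 strain and the others.

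Around glycogen, 8 of 12 tested genes of the glycogen and trehalose list were positive, the median was 0.19, and 3 had an unadjusted p under 0.05 upwards, beside 14.7% of all tested ORFs, and 0 downwards. Without SEO1 replicate 1, 2 of the 12 passed edgeR's test upwards, beside 17.1% of all ORFs. GSY2, glycogen synthase, stood at 1190, 897 and 268 CPM in the GIP4 libraries and at 203 to 1033 in the others. GLG1, a glycogenin that starts glycogen chains, stood at 579, 359 and 94.6 CPM against 46.9 to 350.5. In both genes GIP4 replicate 3 lay within the lower range of the other strains and SEO1 replicate 1 or FUN26 replicate 1 within the higher, so the groups overlapped. Against the FUN26 heterozygote the median of the list was −0.16. Of the glucose-repressed genes only 4 of 25 had enough counts, and 3 were positive (median 1.21). Of these, HXT7, a hexose transporter that shares reads with the near-identical HXT6, stood at 261, 179 and 299.6 CPM against 13.5 to 217.5 (1.81 ± 0.49) and passed against FUN14 alone. Without SEO1 replicate 1, 3 of these 4 genes passed upwards.

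Ribosome biogenesis showed the lowest median of the lists with more than 3 tested members. Of 46 tested members 7 were positive, the median log2 fold change was −0.62 beside −0.01 for all tested ORFs, and 16 had an unadjusted p under 0.05 downwards against 5.79% of all ORFs, and 1 upwards. The median was −0.65 against SEO1, −0.30 against FUN26 and −0.80 against FUN14. The summed level of the list was 10090, 16640 and 18670 CPM in the GIP4 libraries and ran from 15480 to 23440 in the others, so GIP4 replicates 2 and 3 lay inside the range of the other strains. DRS1, a nucleolar helicase, stood at 114, 317 and 237 CPM against 297 to 690.1 (−0.96 ± 0.29), and RRP12, of pre-ribosome export, at 73.4, 137 and 158 CPM against 152 to 305 (−1.0 ± 0.33). NOP4, of large subunit maturation, stood at 277, 285 and 315 CPM against 259 to 636 (−0.70 ± 0.22, overlapped by YPL044C). With all 12 libraries none passed against all 3 strains, and ENP2 and DRS1 passed against FUN14. Without SEO1 replicate 1 the median was −0.65, and 7 of 50 members were lower and 3 higher at an adjusted p under 0.05 by edgeR's test, where 1.92% and 17.1% of all ORFs were.

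The 29 cytosolic ribosomal protein genes had a median of 0.00 with 16 positive. With the GC correction it was −0.22 with 8 positive, beside −0.38 for ribosome biogenesis, and the difference between the lists was not tested. The median of all ORFs was itself −0.11 with that correction, against which the corrected medians of the lists are to be read. Translation factors and tRNA synthetases had 11 of 36 positive (median −0.28), with NIP1, of initiation factor 3, at −1.13 ± 0.38 and EFB1, an elongation factor, at 0.78 ± 0.24. Histones had 1 of 10 positive (−0.28), and proteasome genes 10 of 30 (−0.17, or −0.26 over 32 genes without SEO1 replicate 1). The proteasome genes PRE10 (1.42), PRE5 (1.52) and PUP3 (1.30) were nevertheless on the higher side. Glycolysis and fermentation had 20 of 22 positive at a small median of 0.19, which turned to −0.07 with a correction for GC content, and PGK1 stood at 0.69 ± 0.21. Cell wall genes had 15 of 19 positive (0.18, but −0.11 with the GC correction), among them GAS1 (0.71) and SED1 (0.41). Genes of amino acid synthesis under Gcn4 had 24 of 44 positive (0.10, and −0.02 with the GC correction) and general stress genes 12 of 20 (0.12, but −0.15 with the GC correction). Counts for the remaining larger lists were 9 of 25 for heat shock chaperones (−0.08) and 8 of 24 for the respiratory chain (−0.20). The 5 tested genes of filamentous growth had a median of 0.70, with TEC1 (1.94) and HMS1 (1.05), both regulators, on the higher side and DIG1 at −0.24. Without SEO1 replicate 1 the filter let 6 genes of this list through, with a median of 0.34, so the medians cover different genes. The remaining lists had medians between −0.17 and 0.14, except hexose transport with 3 tested genes at −0.62. With all 12 libraries no member of any list passed against all 3 strains. Without SEO1 replicate 1 members of most lists passed, beside 17.1% of all ORFs higher and 1.92% lower. Higher were 9 of 44 genes of amino acid synthesis, 8 of 27 mitochondrial ribosomal proteins and 5 of 21 general stress genes. Of 25 heat shock chaperones 6 were higher and 1 lower, and of 10 histones 0 passed.

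**Figure D4:**
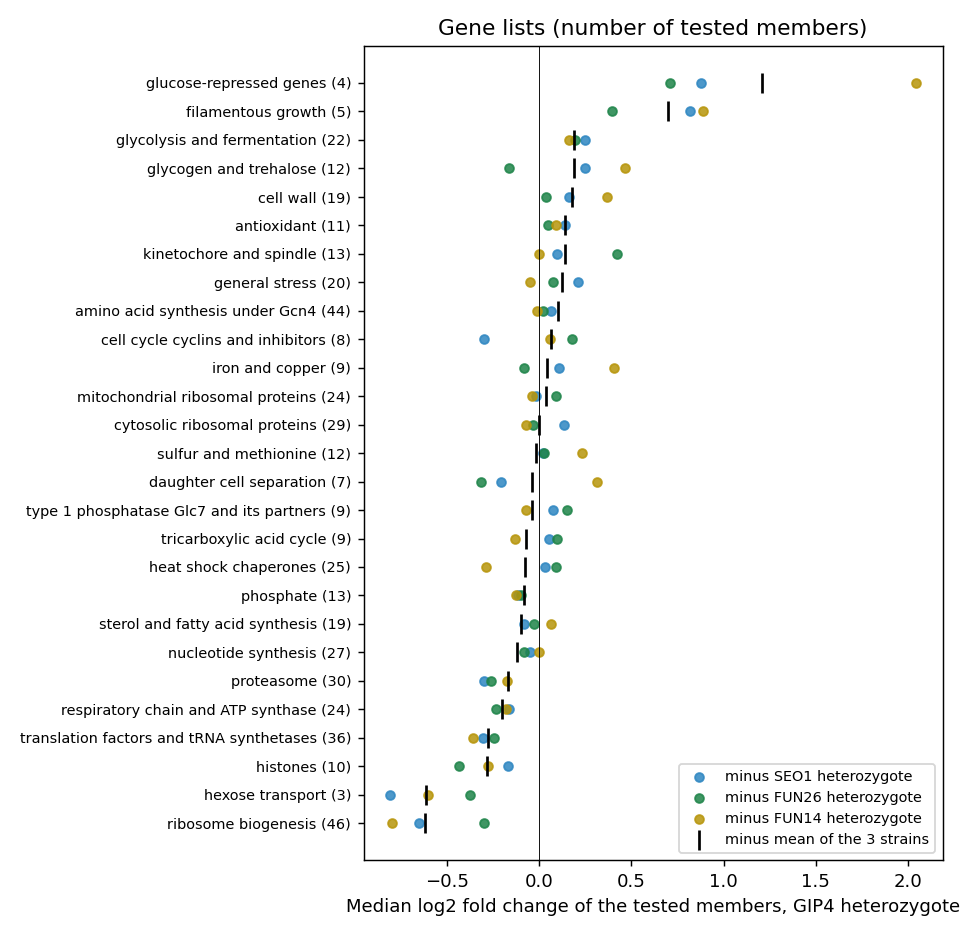
Median log2 fold change of the tested members of each list with at least 3 of them (horizontal), GIP4 heterozygote minus each other strain (coloured points) and minus the mean of the 3 (black bars). Ribosome biogenesis lies at −0.30, −0.65 and −0.80 against FUN26, SEO1 and FUN14, and most lists lie near 0; with a GC correction the medians of glycolysis and of the cell wall turn from 0.19 and 0.18 to −0.07 and −0.11.

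Base composition moved with these values. Over the 2431 tested ORFs with an R64 sequence, log2 fold change and GC content of the last 200 bases had a Spearman rho of 0.41 across genes, which are not independent replicates and share these libraries. The median log2 fold change was −0.39 in the class lowest in GC (median GC 34.0%), 0.52 in the eighth of 10 classes (45.0%) and 0.01 in the highest (50.5%). Within strains the libraries differed too: the deviation of each library from the mean of all 12 had a rho with GC of 0.31, 0.37 and 0.14 in the GIP4 libraries, 0.17, 0.00 and −0.33 in the SEO1 libraries, −0.07, 0.28 and −0.23 in the FUN26 libraries, and −0.07, −0.28 and −0.35 in the FUN14 libraries. The order of these values resembles that on the first axis, with SEO1 replicate 1 on the side of the GIP4 libraries. ORF length (rho −0.05) and mean level (rho 0.02) showed no such relation.

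**Figure D5:**
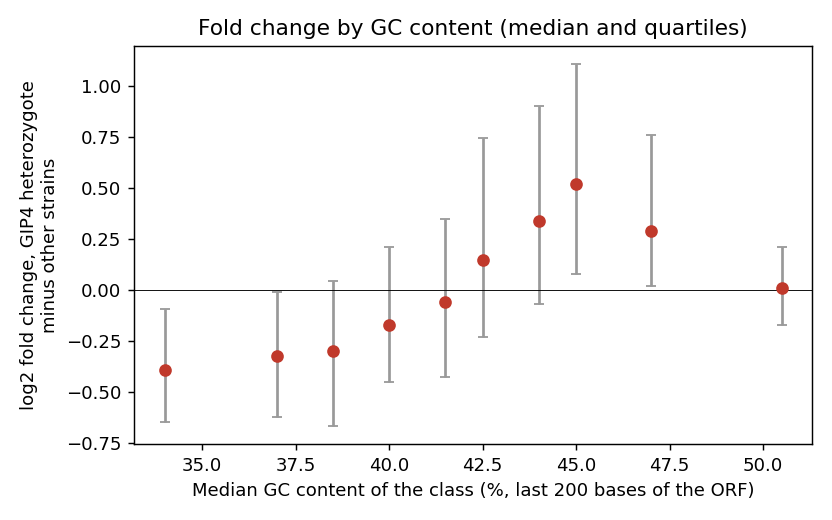
Log2 fold change of the GIP4 heterozygote minus the other strains (vertical; point is the median, bar the quartiles) in 10 classes of ORFs by GC content of the last 200 bases (horizontal, %). Medians climb from −0.39 at 34.0% GC to 0.52 at 45.0% and return to 0.01 at 50.5%.

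The lists differ in GC, with a median of 38.2% for ribosome biogenesis, 44.2% for glycolysis and 46.5% for the cell wall, beside 42.0% for all. With a GC trend taken out of each library, a step chosen after the data were seen, the median of all ORFs was −0.11, that of ribosome biogenesis −0.38 with 10 of 46 positive, and those of glycolysis and of the cell wall turned to −0.07 (8 of 22 positive) and −0.11 (2 of 19 positive). Ribosomal protein genes stood at −0.22 and the glucose-repressed genes at 1.04 under this correction. The correction left 0 ORFs past the threshold against all 3 strains, with 464 at an unadjusted p under 0.05 by edgeR. IGD1 stayed first at 1.14, followed by CUE5 (1.44), CCC1 (1.59) and GPD1 (1.25), while HXK1 stood at 0.55, YGR018C at 0.86 and RBP95 at −0.56. The part of base composition in the strain differences was not tested beyond this.

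The study's theme is position, so the ORFs beside the replaced locus were read separately. Of the 14 ORFs within 5 positions of GIP4 in the systematic order, 7 had enough counts. Their log2 fold changes were −0.80 for RBG1, 0.42 for the initiation factor gene FUN12, 0.25 for the kinetochore gene MTW1, −0.49 for YAL034C-B, 0.76 for POP5 of RNase P, 1.01 for SNC1, a vesicle SNARE next to GIP4, and 0.03 for YAL026C-A. SNC1 stood at 204, 200.5 and 110.4 CPM in the GIP4 libraries against 19.2 to 207 in the others, which overlapped, and its adjusted p by edgeR's quasi-likelihood test was 0.249. With all 12 libraries none of the 7 passed. Without SEO1 replicate 1, FUN12 (0.62, adjusted p = 0.0354) and POP5 (1.67, adjusted p = 0.0259) passed by the same test, where 17.1% of all ORFs were called higher. That library was singled out for its place among the GIP4 libraries, so these calls add no support. The median of the 7 was 0.253 beside −0.01 for all tested ORFs, with an SD of 0.252 over the 3 GIP4 libraries, about its own size. With 1 library left out it ran from 0.14 (without FUN26 replicate 3) to 0.36 (without SEO1 replicate 1), and it was 0.15 without GIP4 replicate 1 or 2, a check added after the data were seen. Within 10 positions the median was 0.04 over 14 tested ORFs. MTW1 and YAL034C-B overlap each other, and YAL026C-A overlaps SAW1 and DRS2, so their reads cannot be told apart.

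Against FUN14 alone, the pairwise comparison with most calls, the higher ORFs with the smallest p were IGD1, ICY1, CUE5, YGR115C and HXK1. They and the lower ORFs below belong to the 53 calls that moved with single libraries. Only 1 call remained when any 1 of the FUN14 libraries was left out, and 0 with wild-type in the fit. IGD1 rose by 3.07 on the log2 scale (edgeR's quasi-likelihood test, Benjamini-Hochberg adjusted p = 0.00293), beside 1.07 against SEO1 and 0.59 against FUN26, which did not pass. ICY1 stood at 750.1, 422 and 284 CPM in the GIP4 libraries and at 67.4, 54.1 and 106 in the FUN14 libraries, and the difference of 2.68 passed (edgeR, Benjamini-Hochberg adjusted p = 0.0482). YGR115C, which overlaps SPT6 and YGR114C, stood at 505.5, 601 and 599 CPM against 57.8, 135 and 82.2 in FUN14, while SEO1 replicate 1, at 707, exceeded all GIP4 libraries. The lower ORFs were RTS3, DRS1, LTV1, ENP2 and HSP42. RTS3, a putative component of type 2A phosphatase, stood at 106, 116 and 47.3 CPM against 462, 284 and 317 in FUN14 and fell by 1.92 on the log2 scale (edgeR, Benjamini-Hochberg adjusted p = 0.0485). HSP42, a small heat shock protein, stood at 457, 211 and 158 CPM against 703, 852.5 and 763 and fell by 1.43 with the same adjusted p. For HSP42 the SEO1 libraries, at 250.1, 435 and 487 CPM, and the FUN26 libraries, at 350.5, 321 and 319, overlapped the GIP4 libraries, and its log2 differences from them were −0.46 and −0.21.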

How the data were processed

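The authors deposited 1 table of estimated counts, some not whole, over the last 200 bases of 6606 ORFs in 18 libraries. Bowtie 0.12.5 is named in the submitters' processing notes, with no role. Build, annotation and strand use were not given in the sources used here. No value exceeds 201 and 93.0% are exactly whole, so values may count distinct read positions, and strong genes are compressed near the ceiling. Estimated counts were rounded and tested with edgeR 4.0.16 (limma 3.58.1, R 4.3.3): TMM factors, filterByExpr with a minimum count of 10, the quasi-likelihood test with 1 mean per strain over 12 libraries, contrast GIP4 minus the mean of the other 3 strains, Benjamini-Hochberg threshold 0.05. In simulated data the test recovered 34% of 100 genes changed 2-fold and 71% of 100 changed 4-fold, with 1 false call. A count of 0 thus does not show that no ORF differs. CPM is per 1e6 of the TMM-scaled size; log2 CPM used a prior count of 2. Intervals cover counting error only.

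Replicates 1 and 2 of the wild-type lay within sampling noise of each other and were averaged into 1. Gene names, GC and sequences came from R64 (5918 ORFs paired). Alternatives were other scale factors, filters, a ceiling correction, a replicate block, left-out libraries or strains, DESeq2 1.42.0, and a GC correction added after the data were seen. The comparison, the 31 gene lists and the tests were chosen with earlier results of these data known. Named genes were the 4 replaced genes, the tested ORFs within 5 of GIP4, 12 in each direction by smallest p among ORFs whose GIP4 libraries did not overlap the others, up to 5 per direction past the threshold in a pairwise contrast, the tested Glc7 partners, and up to 4 per other list by smallest p; not all of the last are printed. GAC1 and REG1 were named besides these, for their roles.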

Additional observations from a re-analysis of the deposited data

Results flagged for a closer look

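Among the 33 named genes examined in the 5 wild-type libraries, 3 had 1 library far from the other 4 by Dixon's criterion, which chance meets in about 1 in 20 groups. CCC1 stood at 45.25 CPM in wild-type replicate 3 and between 142 and 180.3 in the others. MTR4 stood at 105.6 CPM in 1 library, replicate 3, and between 59.9 and 65.1 in the others. DRS1 stood at 769.3 CPM in replicate 3 and between 214 and 361 in the others. Replicate 3 was also the wild-type library with the lowest score on the first axis, at −29.0. The groups of 3 libraries per strain are too small for this criterion.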

How the results depend on the processing

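GIP4 kept its direction under every alternative run, with log2 fold changes from −2.66 to −1.63, each at an unadjusted p under 0.05. The count of ORFs against all 3 strains was 0 in the reported comparison and 0 with wild-type in the fit, with the other 9 libraries as 1 group, without the FUN14 strain and with the GC correction. It was 1 with relative log expression or upper-quartile factors, without the filter, at a minimum count of 20, with the ceiling correction and without the FUN26 strain, 4 by DESeq2, 172 with the replicate block, 212 without the SEO1 strain, and 0 to 543 with 1 library left out, the 543 without SEO1 replicate 1. Against SEO1 it was 0 to 465 with 1 library left out, again 465 without SEO1 replicate 1, and 0 otherwise. Against FUN26 it was 0 in all. Against FUN14 the 53 became 0 with wild-type in the fit, 86 without the filter, 185 by DESeq2, 315 with the replicate block, and 1 to 450 with 1 library left out. Non-overlapping ORFs went from 78 to 166 without SEO1 replicate 1. The cause was not tested.

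The labels do not say what a replicate number shares. Of 18 same-numbered pairs, 11 had a correlation of deviations over 0.1, among them all 3 of GIP4 with FUN26, but not every pair did, with a range from −0.15 to 0.40. In 22 of 36 cases a library correlated best with its own number in another strain, a hint from the data. Replicate 1 also had the highest score on the first axis in each heterozygote. Since the labels leave the matter open, the reported comparison did not take the numbers as pairs. The counts with the replicate block, 172 against all 3 strains and 315 against FUN14, stand beside it as an alternative. Which of these is right was not tested. Upper-quartile factors shifted the median of all ORFs to −0.14, and against that shift ribosome biogenesis stood at −0.75. Shallow libraries limit low genes: GIP4 rests on 3 counts in its own strain, and 2659 of 6606 ORFs could be tested.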
